A study of Mus musculus with 9 samples.

Results

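Bcl7a, Lrrk1, Cd24a, Cd93, Vpreb3, Sox4, Rag1 and Rag2 were grouped as markers of immature and transitional B cells, and their signals were compared in splenic follicular B cells of 3 heavy chain genotypes. The members were taken as named genes, and each was read from the probe set annotated to that gene alone, the brightest over the arrays where there were several. Of the 8 genes, 7 had such a probe set, out of 22180 genes on the array, and Rag1 had none, so it has no value of its own here. The cells came from the spleens of mice 6 to 12 weeks of age, with 3 arrays for homozygous Ighε/ε mice, 3 for homozygous Ighγ1/γ1 mice and 3 for Ighwt mice. The genotype label of all 9 samples, controls included, also carries VJk5, which it does not explain. The ε and γ1 alleles are named after the constant regions of IgE and IgG1, the mice are described as polyclonal, and the labels do not describe how the alleles were built. The study's title puts the question as one of receptor dosage set by heavy chain isotype and its effect on the fate of B cells. Replicates are called independent without a statement that each is a separate animal, so the p-values rest on a spread between arrays that may in part be technical. Values are given in the order of replicates 1, 2 and 3.

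B cells are made in the bone marrow, where RAG1 and RAG2 cut the immunoglobulin genes for V(D)J recombination and a surrogate light chain tests each new heavy chain. Immature cells that carry a receptor leave for the spleen as transitional cells, marked by CD93 (the AA4.1 antigen) and by high CD24 (the heat-stable antigen), and lose CD93 as they become follicular or marginal zone B cells. In normal mice a sorted follicular population is therefore low in CD93 and in the recombinase, while CD24 and VPREB3 persist at lower levels than in precursors.

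The mature follicular character was checked first. Fcer2a (CD23) and Cr2 (CD21), surface receptors of mature B cells, read 9.02 to 10.29 and 8.84 to 9.39 in log2 signal over the 9 arrays, where the median of all probe sets lay between 3.53 and 3.69. Of 17 measured genes of the early B lineage list and the surrogate light chain, 8 did not pass the filter on low signal (above the array median on at least 3 arrays). Vpreb1, which encodes part of the surrogate light chain, and Il7r, the receptor of interleukin 7, lay above the array median on 0 of the 9 arrays. Igll1, the other part of the surrogate light chain, lay above it on 1 and Dntt, the terminal transferase of heavy chain joining, on 2. Kit, Erg, Cd34 and Enpep lay above it on at most 1 array. Vpreb2, a near copy of Vpreb1, and Spn (CD43) lay above it on 9, Flt3 on 7 and Bst1 on 3. The 17 also hold Cd79a, Cd79b, Ms4a1, Blnk and Ly6d, genes not limited to precursors, which lay above it on all 9. Markers of other cells were also read. The summed signal of 13 measured macrophage and monocyte genes was 10.44, 8.28 and 7.77 (log2) on ε/ε arrays 1, 2 and 3, 7.40 to 7.59 on the γ1/γ1 arrays and 7.40 to 7.57 in wild-type. Of the 13, 9 passed the filter on low signal and 0 were called by limma (3 had an unadjusted p under 0.05 in ε/ε against wild-type), and C1qb, a complement gene of macrophages, read 8.29, 6.13 and 5.09 in ε/ε and 3.69 to 4.49 elsewhere. The sum of 12 genes of marginal zone B cells, the other large mature B cell population of the spleen, was 9.94 to 10.28 on ε/ε, 9.54 to 9.86 on γ1/γ1 and 8.66 to 8.92 on wild-type arrays. Il9r, the brightest of them in both mutants, averaged 8.66, 8.81 and 5.84 in ε/ε, γ1/γ1 and wild-type and weighs heavily in that sum. Of the 10 tested, 6 rose in ε/ε (Il9r, Ackr3, Myof, Hes1, Asb2 and Dtx1) and 1 in γ1/γ1 (Il9r) against wild-type, where 2.33% and 0.0247% of all genes tested did. Cd36, Cd9, Cd1d1 and Notch2 differed by 0.82, 0.07, -0.17 and 0.16 in ε/ε and did not pass. The part of marginal zone transcripts in the results was not tested, and values without ε/ε replicate 1, the array of the highest macrophage sum, are given where they bear on a member. The sums were 7.71 to 8.40 for 11 T cell genes, of which 1 passed the filter, and 7.55 to 8.44 for 8 endothelial and stromal genes, of which 3 passed. No gene of the B-1, plasma cell, T cell, NK cell, dendritic cell, erythroid, platelet or endothelial lists was called in any of the 3 comparisons, and no neutrophil gene passed the filter. ε/ε replicate 1 and γ1/γ1 replicate 1 also read low for Xist, at 5.25 and 4.53, the pattern of male samples, and no wild-type array did.

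The DNA around the start of 3 of the members is shown to let the E boxes of tested members be compared; E boxes are letters that E proteins such as that of Tcf3, and many other basic helix-loop-helix factors, can bind. The windows run from 250 bases before to 50 bases after the RefSeq start, on the GRCm38.p6 build, 5′ to 3′ on the gene's strand. Capitals mark the E box, CANNTG, searched on both strands, which read the same since the motif is its own complement. It occurs in 72.3% of the 32851 windows of the same length in the RefSeq table.
Lrrk1, chr7:66388292-66388591, minus strand: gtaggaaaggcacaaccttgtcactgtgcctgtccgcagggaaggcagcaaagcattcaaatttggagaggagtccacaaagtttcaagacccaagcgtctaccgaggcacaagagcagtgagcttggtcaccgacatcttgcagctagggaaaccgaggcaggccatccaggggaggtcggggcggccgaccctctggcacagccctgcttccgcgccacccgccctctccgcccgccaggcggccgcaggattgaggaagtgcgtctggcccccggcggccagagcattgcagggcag
Sox4, chr13:28953650-28953949, minus strand: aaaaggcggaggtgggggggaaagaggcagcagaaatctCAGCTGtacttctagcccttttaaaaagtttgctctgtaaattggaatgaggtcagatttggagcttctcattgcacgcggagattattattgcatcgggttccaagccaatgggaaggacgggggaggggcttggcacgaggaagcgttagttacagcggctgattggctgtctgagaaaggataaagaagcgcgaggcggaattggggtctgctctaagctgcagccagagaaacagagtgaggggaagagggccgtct
Vpreb3, chr10:75948050-75948349, plus strand: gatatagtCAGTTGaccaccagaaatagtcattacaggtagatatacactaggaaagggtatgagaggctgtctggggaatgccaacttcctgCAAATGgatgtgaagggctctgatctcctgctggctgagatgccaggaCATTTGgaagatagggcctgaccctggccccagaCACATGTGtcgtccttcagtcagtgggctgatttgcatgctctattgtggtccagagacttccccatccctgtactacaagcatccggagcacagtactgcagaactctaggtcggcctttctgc
The Lrrk1 window held 0 E boxes, the Sox4 window 1 and the Vpreb3 window 5, of which 2 overlap. The Rag1 and Rag2 windows held 4 and 2. GTAAACA, recognised by Foxo factors and searched on both strands, was in 0 of these 5 windows and in 3.65% of all windows. A match is a description of the letters and not a bound site, and no match speaks only of this window.

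In ε/ε cells Bcl7a rose 2.22-fold over wild-type (limma, adjusted p = 0.0426), and it was the 1 of 6 tested members that passed, where 2.33% of the 12170 genes tested rose and 4.02% fell (6.34% in all). Compared with wild-type, ε/ε readings of Lrrk1 and Cd93 were higher and those of Cd24a and Sox4 lower, by 1.34-fold to 1.53-fold, without passing. In γ1/γ1 cells 0 of the 6 passed against wild-type, as against 0.0411% of all genes (0.0247% higher, 0.0164% lower), and the largest difference was a 1.70-fold lower reading of Sox4. Differences of both signs were found in each genotype. Fewer cells of a type and less RNA per cell cannot be told apart in such bulk samples.

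**Figure D1:**
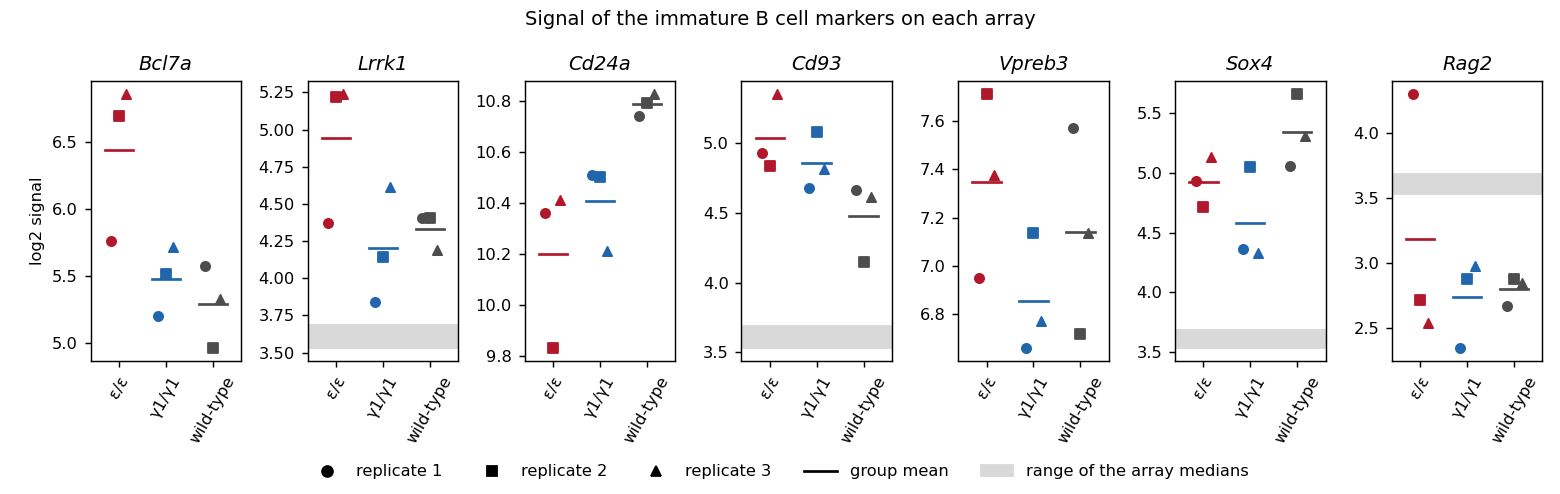
Log2 signal (vertical axis, a separate scale for each gene) of the 7 measured members on the 9 arrays, grouped by genotype; symbols mark replicates, horizontal lines the group means, and the grey band the range of the array medians (3.53 to 3.69) where it falls within the panel. Bcl7a and Cd93 lie higher on all ε/ε arrays than on all wild-type arrays, Cd24a lower on all mutant arrays, and Rag2 lies below the band on 8 of the 9 arrays.

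The surface markers came first. Cd24a, which encodes a small glycoprotein anchored by lipid to the cell surface, was read by probe set 17240606 at 10.36, 9.83 and 10.41 on the ε/ε arrays, 10.51, 10.50 and 10.21 on the γ1/γ1 arrays and 10.74, 10.79 and 10.83 on the wild-type arrays. All 6 mutant arrays lay below all 3 wild-type arrays, and the wild-type arrays were close together (10.79 ± 0.04, SD, n = 3) while ε/ε spread more (10.20 ± 0.32) than γ1/γ1 (10.41 ± 0.17). The difference from wild-type was -0.59 (SE 0.18, 95% interval -0.98 to -0.19, limma adjusted p = 0.0742) in ε/ε and -0.38 (interval -0.77 to 0.01, adjusted p = 0.727) in γ1/γ1, both sharing the wild-type arrays. Between the mutants the difference was -0.21 (interval -0.60 to 0.18, adjusted p = 0.542), and their ranges overlapped. The ε/ε difference from wild-type passed with a trended and robust variance (adjusted p = 0.0464) and with array weights (0.0424). It passed in none of the 9 fits without 1 array (adjusted p = 0.0691 to 0.192), nor with only the 6 arrays compared (0.118). Without ε/ε replicate 1 it was -0.67 (limma adjusted p = 0.0899).

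A second Cd24a probe set, 17233022, did not show this order. It read 8.83, 8.68 and 9.11 on the ε/ε arrays, 7.87, 8.96 and 8.83 on the γ1/γ1 arrays and 9.22, 7.71 and 8.46 on the wild-type arrays. Its groups overlapped, and its ε/ε mean was above the wild-type mean by 0.41 (SE 0.41, adjusted p = 0.637 over all probe sets). With the mean of both probe sets the ε/ε difference was -0.09 (adjusted p = 0.847), so the lower Cd24a reading rests on probe set 17240606.

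Cd93, the transmembrane lectin-like receptor that marks transitional cells, read 4.93, 4.84 and 5.36 on the ε/ε arrays, 4.68, 5.08 and 4.81 on the γ1/γ1 arrays and 4.67, 4.15 and 4.61 on the wild-type arrays. Every mutant array lay above every wild-type array, in γ1/γ1 by a narrow margin, and all 9 lay above their array median. The difference from wild-type was 0.56 (SE 0.20, 95% interval 0.12 to 1.01, adjusted p = 0.117) in ε/ε and 0.38 (interval -0.06 to 0.82, adjusted p = 0.744) in γ1/γ1. The ε/ε and γ1/γ1 arrays overlapped, with a difference of 0.18 (interval -0.26 to 0.62, adjusted p = 0.647). Monocytes, platelets and endothelium also express Cd93. The highest Cd93 reading was in ε/ε replicate 3 and the highest macrophage sum in ε/ε replicate 1. Without replicate 1 the ε/ε difference from wild-type was 0.62 (adjusted p = 0.155). Whether other cells contributed to the Cd93 readings was not tested.

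Vpreb3, a chaperone-like protein that holds newly made heavy chains in B cell precursors, read 6.95, 7.71 and 7.37 on the ε/ε arrays, 6.66, 7.13 and 6.77 on the γ1/γ1 arrays and 7.57, 6.72 and 7.14 on the wild-type arrays. The ranges of the 3 genotypes overlapped. Its means ran from ε/ε (7.35 ± 0.38) through wild-type (7.14 ± 0.43) to γ1/γ1 (6.85 ± 0.25), and no neighbours in that order differed beyond their spread. The largest of the differences, 0.49 between ε/ε and γ1/γ1, had a 95% interval of -0.08 to 1.06 (adjusted p = 0.318). Against wild-type the differences were 0.20 (interval -0.36 to 0.77, adjusted p = 0.663) in ε/ε and -0.29 (interval -0.85 to 0.28, adjusted p = 0.851) in γ1/γ1. Without ε/ε replicate 1 the ε/ε difference was 0.40 from wild-type (limma adjusted p = 0.415) and 0.69 from γ1/γ1 (adjusted p = 0.219).

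Rag2, the partner of RAG1 in the recombinase, was read by probe set 17373638 at 4.30, 2.71 and 2.53 on the ε/ε arrays, 2.34, 2.88 and 2.98 on the γ1/γ1 arrays and 2.67, 2.88 and 2.84 on the wild-type arrays. It lay above the array median on 1 of 9 arrays, ε/ε replicate 1, and did not pass the filter, so no fold is given. In a fit of all 22180 genes without the filter its ε/ε difference from wild-type was 0.39 (SE 0.40, adjusted p = 0.655), and -0.17 without ε/ε replicate 1. Rag1 shares its single probe set with Iftap, its neighbour, so those readings belong to no 1 gene.

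Sox4, an HMG box transcription factor that B cell progenitors need, read 4.93, 4.72 and 5.13 on the ε/ε arrays, 4.36, 5.05 and 4.33 on the γ1/γ1 arrays and 5.06, 5.66 and 5.31 on the wild-type arrays by probe set 17286231. All γ1/γ1 arrays lay below all wild-type arrays, replicate 2 by a hair, and ε/ε overlapped with both. The order of the means was wild-type (5.34 ± 0.30), ε/ε (4.93 ± 0.21) and γ1/γ1 (4.58 ± 0.41). The γ1/γ1 difference from wild-type was -0.76 (SE 0.23, 95% interval -1.28 to -0.25, adjusted p = 0.544), and the ε/ε difference was -0.42 (interval -0.93 to 0.10, adjusted p = 0.297). Between ε/ε and γ1/γ1 it was 0.35 (interval -0.17 to 0.86, adjusted p = 0.430). Without ε/ε replicate 1 the ε/ε difference from wild-type was -0.42 (limma adjusted p = 0.412).

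The second Sox4 probe set, 17291525, gave the same order against wild-type. It read 3.88, 3.89 and 4.15 on the ε/ε arrays, 3.98, 3.90 and 3.74 on the γ1/γ1 arrays and 4.33, 4.32 and 4.62 on the wild-type arrays. All 6 mutant arrays lay below all 3 wild-type arrays here, as was so of 15.7% of all probe sets for ε/ε and 5.32% for γ1/γ1. The differences were -0.45 (SE 0.14, adjusted p = 0.143 over all probe sets) and -0.55 (SE 0.14, adjusted p = 0.553), and neither passed, where 2.86% and 0.0653% of all probe sets did.

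Bcl7a, a subunit of the SWI/SNF (BAF) chromatin remodelling complex, read 5.76, 6.69 and 6.86 on the ε/ε arrays, 5.20, 5.51 and 5.71 on the γ1/γ1 arrays and 5.57, 4.96 and 5.33 on the wild-type arrays. The ε/ε arrays lay above all others, by a wide margin in replicates 2 and 3 and narrowly above the highest γ1/γ1 array in replicate 1. Against wild-type it rose by 1.15 (SE 0.28, 95% interval 0.52 to 1.78, adjusted p = 0.0426), from 5.29 ± 0.31 to 6.44 ± 0.59. The difference between ε/ε and γ1/γ1 was 0.96 (interval 0.33 to 1.60, adjusted p = 0.103), and that between γ1/γ1 and wild-type 0.19 (interval -0.45 to 0.82, adjusted p = 0.920). Bcl7a has 1 probe set, so no second one bears on the reading.

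The Bcl7a call is close to the threshold. It was lost in 7 of the 9 fits that left out 1 array, those without ε/ε replicate 2 or 3 (adjusted p = 0.101 and 0.102), without γ1/γ1 replicate 2 or 3 (0.0664 and 0.0593), or without wild-type replicate 1, 2 or 3 (0.0591, 0.161 and 0.115), and also without the filter (0.0683) and with only the 6 arrays compared (0.0960). Without ε/ε replicate 1, the array with the highest macrophage sum and 1 of the low Xist arrays, the difference from wild-type was 1.49 (adjusted p = 0.0132) and that from γ1/γ1 was 1.30 (adjusted p = 0.0293), which then passed.

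Lrrk1, a large kinase with a GTPase domain and a relative of Lrrk2, read 4.37, 5.22 and 5.24 on the ε/ε arrays, 3.84, 4.14 and 4.62 on the γ1/γ1 arrays and 4.41, 4.41 and 4.19 on the wild-type arrays. ε/ε replicates 2 and 3 lay above every other array, and replicate 1 lay within the wild-type range, where replicates 1 and 2 hold the same value. The difference from wild-type was 0.61 (SE 0.26, 95% interval 0.03 to 1.19, adjusted p = 0.182) in ε/ε and -0.13 (interval -0.71 to 0.45, adjusted p = 0.939) in γ1/γ1, and 0.74 (interval 0.16 to 1.32, adjusted p = 0.152) between the mutants. It passed against wild-type with a covariate for low Xist (0.84, adjusted p = 0.0266) and over the 7 arrays of high Xist (0.90, adjusted p = 0.0374), and missed the threshold without ε/ε replicate 1 alone (0.90, adjusted p = 0.0545).

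Bcl7a and Lrrk1 shared their pattern over the arrays, with a Pearson r of 0.894 over 9 arrays, the highest of the 21 pairs of members. This is a description, since the arrays share genotype and ε/ε replicates 2 and 3 hold much of the spread. Cd93 and Vpreb3 also ran with Bcl7a (r = 0.734 and 0.684). By probe set 17240606, Cd24a ran against Bcl7a (r = -0.703) and together with Sox4 (r = 0.615). For the other Cd24a probe set, which did not show the same order of genotypes, correlations with the members were not computed. By likeness over the 9 arrays, the 3 of the 12170 tested genes closest to Bcl7a, the member with the smallest F test p, were Ss18l1 (r = 0.984), Galns (0.975) and Dbnl (0.975). Ss18l1, a subunit of the neuronal BAF complex, averaged 5.36 (ε/ε), 4.83 (γ1/γ1) and 4.73 (wild-type).

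**Figure D2:**
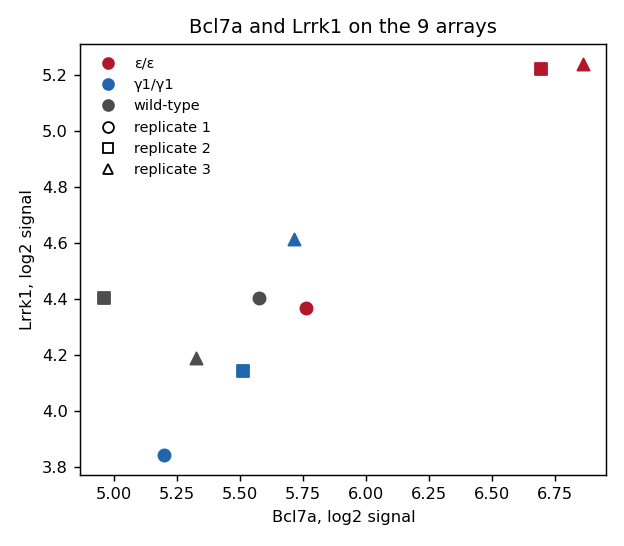
Lrrk1 log2 signal (vertical axis) against Bcl7a log2 signal (horizontal axis), each point 1 array, coloured by genotype with symbols for replicates. ε/ε replicates 2 and 3 stand at the upper right (Bcl7a 6.69 and 6.86, Lrrk1 5.22 and 5.24), and ε/ε replicate 1 (5.76 and 4.37) lies close to the remaining 6.

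Of the 7 measured members, 6 passed the filter on low signal, and each of these lay above the array median on all 9 arrays, so none passed through 1 genotype alone. Between ε/ε and wild-type, where Bcl7a alone was called, the members' median difference was 0.38, against -0.01 over all genes, and 4 had an unadjusted p under 0.05. Counts of unadjusted p under 0.05, here and elsewhere, have no share over all genes beside them, since that share was not computed. Between ε/ε and wild-type it is at least that of the 1626 of 12170 genes with a limma adjusted p under 0.1. Groups did not overlap for 3 of the 6, Bcl7a and Cd93 higher and Cd24a lower, against 28.4% of all genes (11.8% higher, 16.6% lower). Between γ1/γ1 and wild-type the median was -0.21 against -0.02, and 1 member, Sox4, had an unadjusted p under 0.05. Groups there did not overlap for 3 of the 6, Cd93 higher and Cd24a and Sox4 lower, against 12.4% of all genes (4.68% higher, 7.71% lower). Between ε/ε and γ1/γ1 0 of the 6 passed (limma), where 1.02% of all genes were higher and 1.64% lower in ε/ε (2.66% in all). There 2 members, Bcl7a and Lrrk1, had an unadjusted p under 0.05, the median was 0.42, and the groups were apart for Bcl7a alone, against 21.1% of all genes (9.86% higher, 11.3% lower). By the F test for any difference among the genotypes 0 of the 6 passed, against 4.11% of all genes, with adjusted p from 0.0757 for Bcl7a to 0.444 for Vpreb3. Under quantile normalization the genes called between ε/ε and wild-type were 410 higher and 299 lower, in place of 283 higher and 489 lower.

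**Figure D3:**
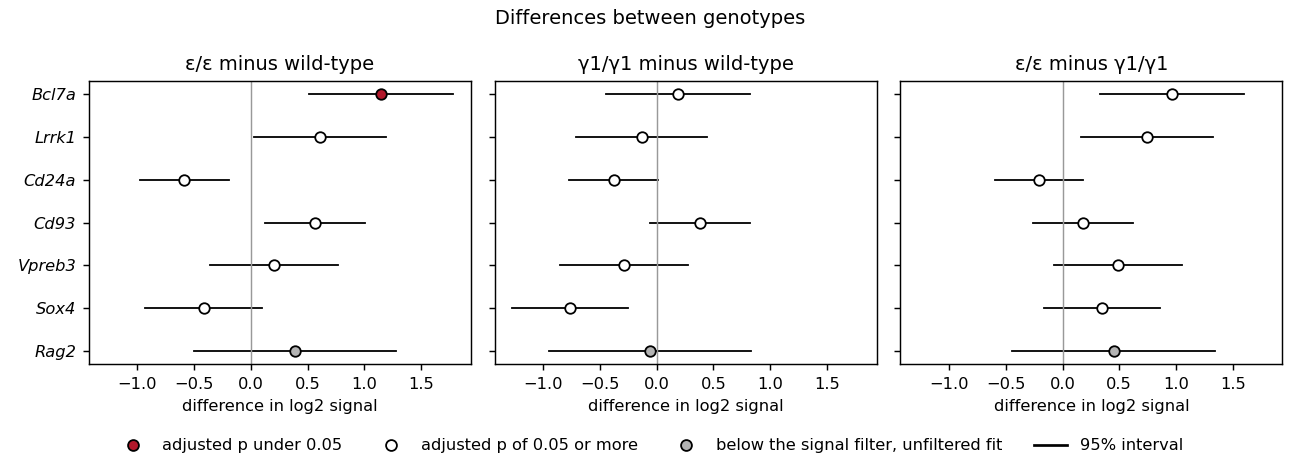
Difference in log2 signal (horizontal axis) of each member in the 3 comparisons, with the moderated 95% interval as a bar; the filled red point passed at an adjusted p under 0.05, open points did not, and grey points are Rag2 from the fit without a filter. Bcl7a against wild-type in ε/ε (1.15) is the 1 red point, and Cd24a and Sox4 lie to the left of 0 in both mutants when set against wild-type.

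Relatives and partners of the members gave 1 call. Siglecg, the inhibitory lectin of B cells that can bind CD24, rose by 0.60 (SE 0.14, adjusted p = 0.0294) in ε/ε, from 8.09 to 8.69, and the call was lost in 4 of 9 fits without 1 array, those lacking array 2 or 3 of ε/ε or of wild-type, with adjusted p reaching 0.109, and with only the 6 arrays compared (0.0555). Of 12 such genes 6 were tested, with 1 call upward and 0 downward in ε/ε against wild-type (2.33% higher and 4.02% lower over all genes), a median of 0.43, and 0 called in γ1/γ1, where 1 had an unadjusted p under 0.05. Bcl7b, a paralogue of Bcl7a, averaged 5.48 in ε/ε against 4.76 in wild-type, which differ by 0.72 (SE 0.29, adjusted p = 0.159), and Bcl7c differed by 0.30 (adjusted p = 0.384). Lrrk2, the paralogue of Lrrk1, differed by 0.06 (adjusted p = 0.811) in ε/ε and by 0.34 (adjusted p = 0.666) in γ1/γ1.

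Among 15 genes of the early B lineage 8 were tested, and 2 rose and 0 fell in ε/ε against wild-type (2.33% and 4.02% of all genes), with a median of 0.61. Ly6d, a surface protein present from the first committed progenitors onward, rose by 1.11 (SE 0.25, adjusted p = 0.0289), reading 10.16, 10.71 and 10.69 on the ε/ε arrays, 9.90, 10.21 and 10.28 on the γ1/γ1 arrays and 9.94, 9.05 and 9.24 on the wild-type arrays. Blnk, the adaptor that links the pre-B cell receptor and the B cell receptor to calcium signals, rose by 0.79 (SE 0.15, adjusted p = 0.0156). Both are also expressed in mature B cells. The Ly6d call was lost when array 2 or 3 of ε/ε or of wild-type was left out, at adjusted p reaching 0.119, and with only the 6 arrays compared (0.0757). The Blnk call was lost when array 2 or 3 of wild-type was left out, reaching 0.0705. In γ1/γ1 0 of the 8 were called and 2 had an unadjusted p under 0.05. The ε/ε and γ1/γ1 values are set against the same wild-type arrays.

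Transcription factors that set up the B lineage included 3 of 21 that rose in ε/ε and 0 that fell (2.33% and 4.02% of all genes), with a median of 0.25. Tcf3, which encodes the E proteins E12 and E47, rose by 1.40 (SE 0.23, adjusted p = 0.00896), reading 6.74, 6.64 and 6.82 on the ε/ε arrays, 5.31, 6.08 and 6.02 on the γ1/γ1 arrays and 5.42, 4.99 and 5.59 on the wild-type arrays. All ε/ε arrays lay above all others, and the call held in each of the 9 fits without 1 array (adjusted p up to 0.0435). Spib, an Ets factor of mature B cells, rose by 1.54 (SE 0.33, adjusted p = 0.0253), and Spi1 (PU.1), an Ets factor of B cells and of macrophages, by 0.62 (SE 0.15, adjusted p = 0.0431). The Spib call was lost with the same 4 arrays left out singly as for Ly6d, at adjusted p reaching 0.104, and with only the 6 arrays compared (0.0734). Spi1 lost its call in 15 of 22 alternatives, among them 8 of the 9 fits without 1 array, all but that lacking array 1 of wild-type (reaching 0.138), no filter (0.0546), a trended and robust variance (0.0519), the 6 arrays compared (0.0824) and both low Xist treatments (0.0672 and 0.104). Ebf1 and Foxo1, which drive Rag expression in precursors, differed by 0.25 (adjusted p = 0.287) and 0.41 (adjusted p = 0.299). In γ1/γ1 0 of the 21 were called by limma and 0 had an unadjusted p under 0.05.

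Genes that rejoin DNA after RAG cleavage gave 1 call among 11 tested in ε/ε against wild-type, a fall, as 4.02% of all genes fell. Prkdc, the catalytic subunit of DNA-dependent protein kinase, fell by 0.67 (SE 0.15, adjusted p = 0.0284) in ε/ε, from 6.38 to 5.71, and the list median was -0.16. The Prkdc call was lost under quantile normalization (0.0518), with only the 6 arrays compared (0.0576), over only the arrays of high Xist (0.0610) and in 5 of 9 fits without 1 array, those of the 3 ε/ε arrays and of wild-type replicates 2 and 3 (adjusted p up to 0.113). In γ1/γ1 0 were called and 2 had an unadjusted p under 0.05.

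Of 13 tested markers of mature follicular cells, 3 fell and 0 rose in ε/ε against wild-type (4.02% and 2.33% of all genes), with a median of -0.05. They were Zfp318, which allows IgD to be made from the heavy chain transcript (a difference of -1.98, SE 0.20, adjusted p = 0.00150), Cd200, an inhibitory surface ligand (-1.38, SE 0.24, adjusted p = 0.0119), and Cd55, a complement regulator (-0.95, SE 0.17, adjusted p = 0.0136). Against γ1/γ1, Zfp318 and Cd55 fell in ε/ε as well, with differences of -1.57 (adjusted p = 0.00550) and -1.12 (adjusted p = 0.0109). These 2 were the calls of the 5 lists between ε/ε and γ1/γ1 (1.64% of all genes were lower), where 0 genes of the other 4 lists passed (limma), and 14 of those had an unadjusted p under 0.05. Fcer2a and Cr2 read higher in both mutants, by 0.54 and 0.21 in ε/ε and by 0.89 and 0.41 in γ1/γ1 (adjusted p of 0.140 or more), without passing. In γ1/γ1 0 of the 13 were called and 3 had an unadjusted p under 0.05. Cd55 lost its call against wild-type when array 2 or 3 of wild-type was left out (adjusted p reaching 0.0656), and against γ1/γ1 in the fits of only the 6 arrays compared and of only the high Xist arrays (reaching 0.0832).

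**Figure D4:**
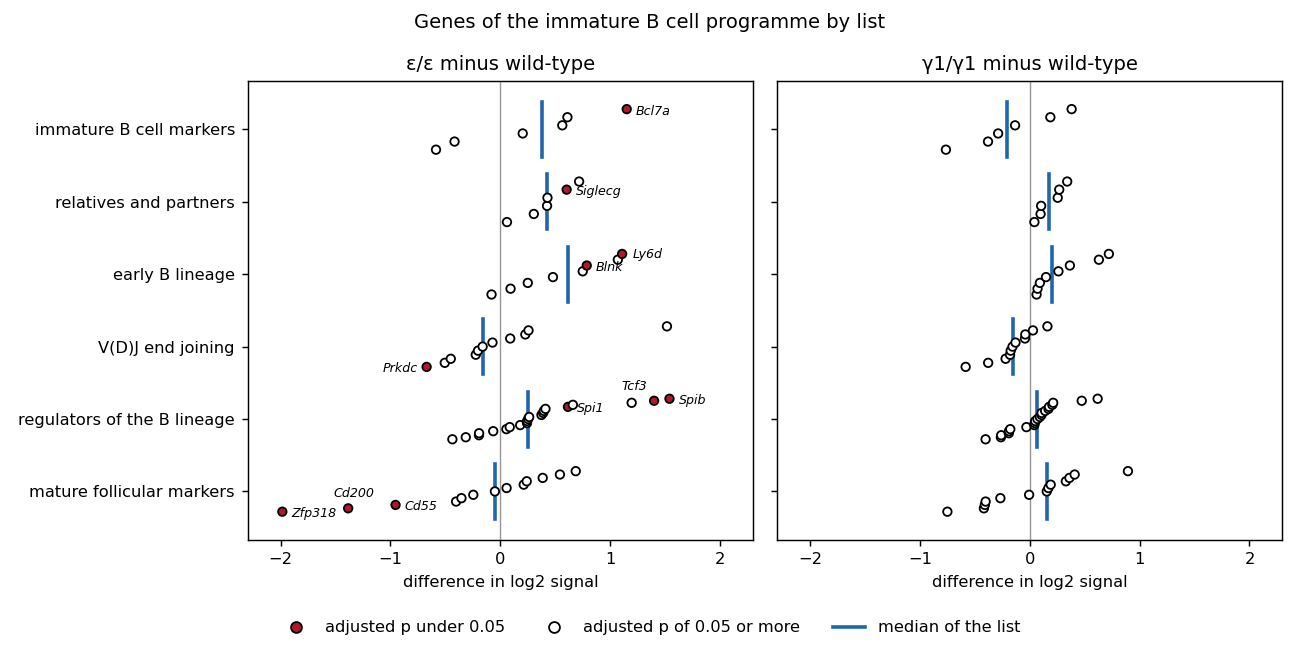
Difference in log2 signal (horizontal axis) of each tested gene against wild-type, by gene list, in ε/ε (left) and γ1/γ1 (right); red points passed at an adjusted p under 0.05, open points did not, and blue bars are list medians. All red points are in the ε/ε panel, with 1 each among the members, their relatives and the end-joining genes (Bcl7a, Siglecg and Prkdc), 2 in the early B lineage list, and 3 each among regulators and mature follicular markers.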

How the data were processed

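Total RNA from sorted splenic follicular B cells was extracted with TRIzol, and 54 to 360 ng were amplified and labelled with biotin as cDNA for single-colour arrays, per the labels' protocols. The authors deposited 1 table of 41345 probe sets by 9 arrays, whose range fits log2 signals. The submitters' processing notes name R 3.3.1; for background correction, normalization and probe summary the method is not given in the sources used here. Equal values on at least 2 arrays occurred in 45.9% of probe sets, which can make a group's spread look small, and 0 pairs of arrays were identical. The number of arrays limits the precision.

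Probe sets with 1 symbol (23521) were named from the platform annotation, the brightest stood for a gene, and a gene was tested when its signal exceeded the array median on at least 3 of 9 arrays (12170 genes). All arrays entered 1 limma 3.58.1 model (R 4.3.3) with a mean per genotype, 6 residual degrees of freedom and eBayes; adjusted p-values are Benjamini-Hochberg over the genes tested, with a threshold of 0.05, and tests are two-sided. A gene is called, or passes, below it. The script was tested on simulated data. Figures were drawn with matplotlib 3.10.9.

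The members and lists were chosen with earlier results of these data known. The rule named all members and, from each of 5 lists, up to 4 called genes per contrast with the largest difference, or else the 2 of smallest F test p. Bcl7b, Bcl7c, Lrrk2, Ebf1, Foxo1, Pax5, Fcer2a, Cr2, C1qb, Cd79a, Cd79b, Ms4a1 and the marginal zone genes named were added after their values were seen. So were the precursor genes below or near the filter (Vpreb1, Vpreb2, Igll1, Dntt, Il7r, Kit, Erg, Cd34, Enpep, Spn, Flt3 and Bst1). Low Xist means a signal under the midpoint of the lowest and highest array. Promoter sequences are RefSeq's, and 5 of the 8 members matched. Alternatives were 2 further normalizations, 2 filters, mean of probe sets, 2 variance settings, a fit of only the 6 arrays compared, a block on replicate number, 2 treatments of low Xist, 2 thresholds and each array left out.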

Additional observations from a re-analysis of the deposited data

Results flagged for a closer look

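Rag1 and Rag2 each share a probe set with Iftap, the gene that lies at the same locus, and these readings stand outside the comparisons because they cannot be given to 1 gene. The probe set annotated to Rag1 and Iftap (17388683) read 5.34 on ε/ε replicate 3, against at most 2.76 on the wild-type arrays. It read 3.39 and 2.68 on ε/ε replicates 1 and 2 and 2.56 to 2.83 on the γ1/γ1 arrays, so the high value is that of a single array.

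The probe set annotated to Rag2 and Iftap (17388681) read 3.96 on ε/ε replicate 1, against at most 3.11 on the wild-type arrays, and 2.36 and 2.51 on ε/ε replicates 2 and 3. The same array gave the single Rag2 reading above the array median (4.30), from a separate probe set. Both readings were picked out because they exceeded every wild-type array and also their own array median, in data that no comparison used. They were not tested, and which gene or cells they come from was not tested.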

How the results depend on the processing

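Of the 438 values of the 21 member results under alternatives, 420 kept their side of the threshold, 10 lost the call (all Bcl7a between ε/ε and wild-type), 8 gained one, and 0 called values changed sign; 11 uncalled values did. For ε/ε against wild-type the count of members called, 1 as reported, was 0 without the filter, with the 6 arrays compared and with the replicate number as a block (replicate block, Bcl7a adjusted p = 0.0503). It was 2 with array weights, a variance both trended and robust, a covariate for low Xist, only the arrays of high Xist, and an adjusted p under 0.1, and 0 to 1 without 1 array. For ε/ε against γ1/γ1 the count of 0 became 2 with the low Xist covariate and was 0 to 1 without 1 array. For any genotype the count of 0 became 1 with array weights, 2 with the low Xist covariate, 1 with only the arrays of high Xist and 1 at an adjusted p under 0.1, and was 0 to 1 without 1 array. For γ1/γ1 against wild-type it was 0 under every alternative run. The cause of these changes was not tested. Same-numbered samples did not pair: 1 of 9 such pairs had a correlation of deviations above 0.1, in a range of -0.09 to 0.16, against -0.07 to 0.08 for other numbers. Among the other named genes the block also ended the ε/ε calls of Siglecg (adjusted p = 0.0579), Ly6d (0.0547), Spib (0.0503) and Spi1 (0.0610), and a least log2 difference of 1 left out Siglecg, Blnk, Prkdc, Spi1 and Cd55 by its construction. Over all genes the 772 calls between ε/ε and wild-type became 186 and 210 without wild-type replicates 2 and 3, 512 without wild-type replicate 1, 424 with the 6 arrays compared and 1626 at an adjusted p under 0.1. Of the members, signal over background limits Rag2 most.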

Other observations

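The 8 genes of the early B lineage list and the surrogate light chain that did not pass the filter on low signal were read array by array, after their values were seen. The highest of the 9 readings was on an ε/ε array for 5 of them and on a γ1/γ1 array for 3. How often each array is the highest over all genes was not computed. Some genes well above the filter, among them Ebf1, Pax5 and Foxo1, also read highest on ε/ε replicate 3. ε/ε replicate 3 gave the highest reading of Igll1, part of the surrogate light chain (4.24, against 3.07 to 3.28 on the other arrays), of Erg, an Ets factor of progenitors (3.69, against 2.41 to 3.08), of Il7r, the receptor of interleukin 7 (3.50, still below the array median, against 2.01 to 3.05), and of Enpep, a surface peptidase (2.92, against 2.69 to 2.79). Dntt, the terminal transferase, read 4.35 and 4.05 on ε/ε replicates 1 and 3, against 3.24 on ε/ε replicate 2 and 3.09 to 3.35 elsewhere. The highest readings of Vpreb1 (3.21), Kit (3.75) and Cd34 (3.44) were on γ1/γ1 replicates 1, 2 and 3. These are readings of single arrays near the lower end of the scale, and no test was made of them.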
